A study of Homo sapiens with 48 samples.

Results

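After siRNA against UPF1, cells carrying the UPF1 form labelled FE-ER were compared with cells carrying the form labelled E797R. The comparison asks what the F192E change costs on the E797R background. The comparison uses 6 of the 48 RNA-seq libraries of the series, 3 labelled FE-ER with siRNA against UPF1 (siUPF1) and 3 labelled E797R with the same siRNA. In FE-ER 126 genes were higher and 20 were lower than in E797R, of 16697 tested. The genes that were higher include 5 components of the nonsense-mediated decay machinery and 5 host genes of small nucleolar RNAs. FE-ER stood between E797R and the line with no UPF1 transgene in the level of genes that rise when UPF1 is lost.

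Nonsense-mediated mRNA decay (NMD) removes mRNAs on which the ribosome stops early, and also trims the level of many normal transcripts. UPF1 is its ATPase and RNA helicase, UPF2 and UPF3B connect UPF1 to the exon junction complex, and the kinase SMG1 with its partners SMG8 and SMG9 phosphorylates UPF1, after which SMG5 and SMG6 act in the decay of the mRNA. Several of these factors are encoded by mRNAs that are NMD targets themselves, so that their levels rise when the pathway slows.

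All lines derive from Flp-In 293 T-REx, human embryonic kidney cells with a site for inserting a transgene, and all were kept under hygromycin B. The FE-ER and E797R lines each carried a stable CLIP-tagged UPF1 mutant (CLIP is a protein label, not an assay here). The labels do not spell out FE-ER. Its letters join those of F192E and E797R, and it is read here as the form with both changes. Cells received 40 nM of siUPF1 or of a non-targeting siRNA (siNT) and were harvested after 72 h, with 3 replicates per line and siRNA, which the submitters call biological replicates. Groups used beside the comparison were FE-ER and E797R with siNT, F192E and wild-type UPF1 (WT) with siUPF1, and WT and the line with the CLIP tag alone (called CLIP) with each siRNA. Each UPF1 form is represented by 1 line, so that a difference caused by the form and one that the line carries for another reason cannot be told apart within 1 comparison.

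The positions of both changes in the UPF1 mRNA are shown because the comparison turns on them. They were read from transcript UPF1-201 of GENCODE 29 (hg38, plus strand), whose coding sequence has 1118 codons in 24 exons, with the altered codon in capitals and 30 bases on each side. The F192 codon lies in exon 4 and the E797 codon in exon 17, and in this transcript they encode phenylalanine and glutamate, the residues that the labels name. Both stretches are coding sequence, at chr19:18850157-18850219 and chr19:18860884-18860946. As background, F192 lies in the cysteine- and histidine-rich domain through which UPF1 binds UPF2, and E797 in the helicase core.
F192 codon, changed in F192E: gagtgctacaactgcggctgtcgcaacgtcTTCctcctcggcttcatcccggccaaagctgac
E797 codon, changed in E797R: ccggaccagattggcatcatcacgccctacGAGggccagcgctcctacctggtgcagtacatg

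The 6 libraries held between 6016999 and 9579307 expected counts each, against 6016999 to 14551820 over all 48. Of 16 genes typical of 293 cells, 13 were above 1 CPM (the count of a gene relative to its library's scaled total) in all 6 libraries, while STMN2 was at 0. Of 20 markers of other cell types, 17 stayed under 1 CPM in all 6 and 5 were at 0; their sum ran from 6.19 to 8.51 CPM in FE-ER and from 6.99 to 10.6 in E797R.

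UPF1 RNA, which the transgene and the endogenous gene both feed, was used to check the knockdown in CLIP and the transgene in the other lines. It cannot tell FE-ER from E797R, nor show the loss of endogenous UPF1 in lines with a transgene. In CLIP it fell from 106 ± 7.45 CPM (SD, n = 3) with siNT to 20.4 ± 0.916 with siUPF1. With siUPF1 it was at 4956, 4983 and 4518 CPM in FE-ER and at 4296, 4140 and 4349 in E797R. The highest E797R library thus lay below the lowest FE-ER library, by little. The log2 difference was 0.18 (SE 0.11) and was not called across all genes (edgeR quasi-likelihood test, adjusted p = 0.73), and an exact two-sided permutation test over the 6 libraries gave p = 0.1, the smallest that 3 against 3 allows. In the F192E line UPF1 RNA stood at 3839 ± 34.9 CPM and in WT at 4515 ± 409 (log2 difference -0.23, adjusted p = 0.38), the opposite direction. The part of transgene level in the results below was not tested.

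In FE-ER 126 genes were higher, which is 0.755% of all genes tested, and 20 were lower, which is 0.12% (both 0.874%; edgeR quasi-likelihood test, called at an adjusted p under 0.05). The higher genes differed by a median of 0.53 on the log2 scale, 1.45-fold, and 54 of them by 1.5-fold or more and 11 by 2-fold or more. Every FE-ER library lay above every E797R library for all 126, as it did for 8.06% of all genes tested. At an unadjusted p under 0.05 there were 1468 genes. The count of 146 depends on the number of libraries: it ran from 65 without E797R replicate 1 to 88 without FE-ER replicate 1, and each of the 6 libraries lowered it by more than 1.5 times. Fitting only these 6 libraries left 26.

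**Figure D1:**
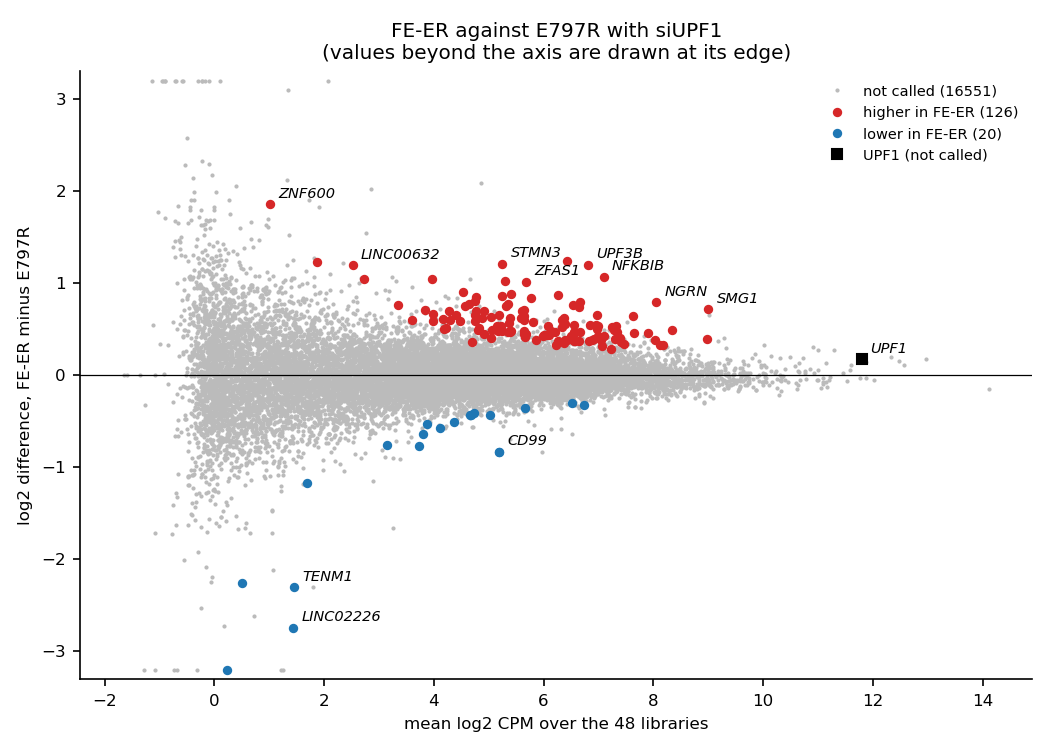
Log2 difference between FE-ER and E797R with siUPF1 (vertical axis) against the mean log2 CPM over the 48 libraries (horizontal axis), 1 point per gene. Red points are the 126 genes called higher, blue the 20 called lower, gray the genes not called, and the black square is UPF1; points above 0 among the called genes outnumber those below. CEBPE, at 0 in FE-ER, is drawn at the lower edge.

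The smallest adjusted p belonged to UPF3B, the factor that links UPF2 to the exon junction complex, on chromosome X (119805311 to 119852998, minus strand). It measured 115, 112 and 133 CPM in the 3 FE-ER libraries and 50.7, 56.5 and 49.6 in the E797R libraries. The lowest FE-ER library was far above the highest E797R library. The log2 difference was 1.20 (SE 0.11, 2.30-fold; adjusted p = 7.8e-09). UPF3B differed between these lines with siNT as well, at 97.7 ± 4.64 CPM in FE-ER and 59.6 ± 7.29 in E797R (log2 difference 0.71, adjusted p = 0.0024). WT stood between the lines with siUPF1, at 84.4 ± 4.02 CPM, below all FE-ER and above all E797R libraries, and at 90.4 ± 3.41 with siNT.

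Of 19 NMD factors tested, 5 were higher in FE-ER, where 0.755% of all genes were, and none was lower. The median log2 difference was 0.15, against -0.005 over all genes. After UPF3B came SMG1, the kinase of UPF1 (chromosome 16, 18804853 to 18926454, minus strand). It measured 647, 632 and 579 CPM in FE-ER and 382, 387 and 361 in E797R, with no overlap. The log2 difference was 0.72 (SE 0.09; adjusted p = 2.4e-06), and 0.07 with siNT (adjusted p = 1). SMG1 has near-identical pseudogenes on the same chromosome, between which the counting could divide reads. None of 7 such copies tested (SMG1P1 to SMG1P7) was called, where 0.874% of all genes were. Their log2 differences ran from -0.60 to 0.39, with SE from 0.16 to 0.34, so the lack of calls says little about such division.

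SMG9, a regulator in the SMG1 complex, was at 110, 123 and 109 CPM in FE-ER and at 68.2, 76.1 and 61.5 in E797R. The groups did not overlap (log2 difference 0.74, SE 0.13; adjusted p = 0.00061), and with siNT the difference was -0.05. UPF2, the partner that binds the domain that holds F192, was at 133, 135 and 139 CPM against 96.5, 108 and 75.7. Its E797R libraries were more spread than its FE-ER libraries, and the call (log2 difference 0.55, SE 0.13; adjusted p = 0.034) was lost in 5 of the 6 fits that left out 1 library, where the adjusted p reached 0.30; it held without E797R replicate 2.

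SMG5 and the endonuclease SMG6 were not called. SMG5 measured 189, 219 and 190 CPM in FE-ER and 154, 163 and 128 in E797R (log2 difference 0.43, SE 0.14; adjusted p = 0.19). SMG6 measured 113, 111 and 118 against 86.4, 97.2 and 85.2 (0.35, SE 0.11; adjusted p = 0.13). Neither gene's libraries overlapped between the lines. Among 14 exon junction complex genes none was called in either direction, where 0.874% of all genes were, and their median was 0.02.

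**Figure D2:**
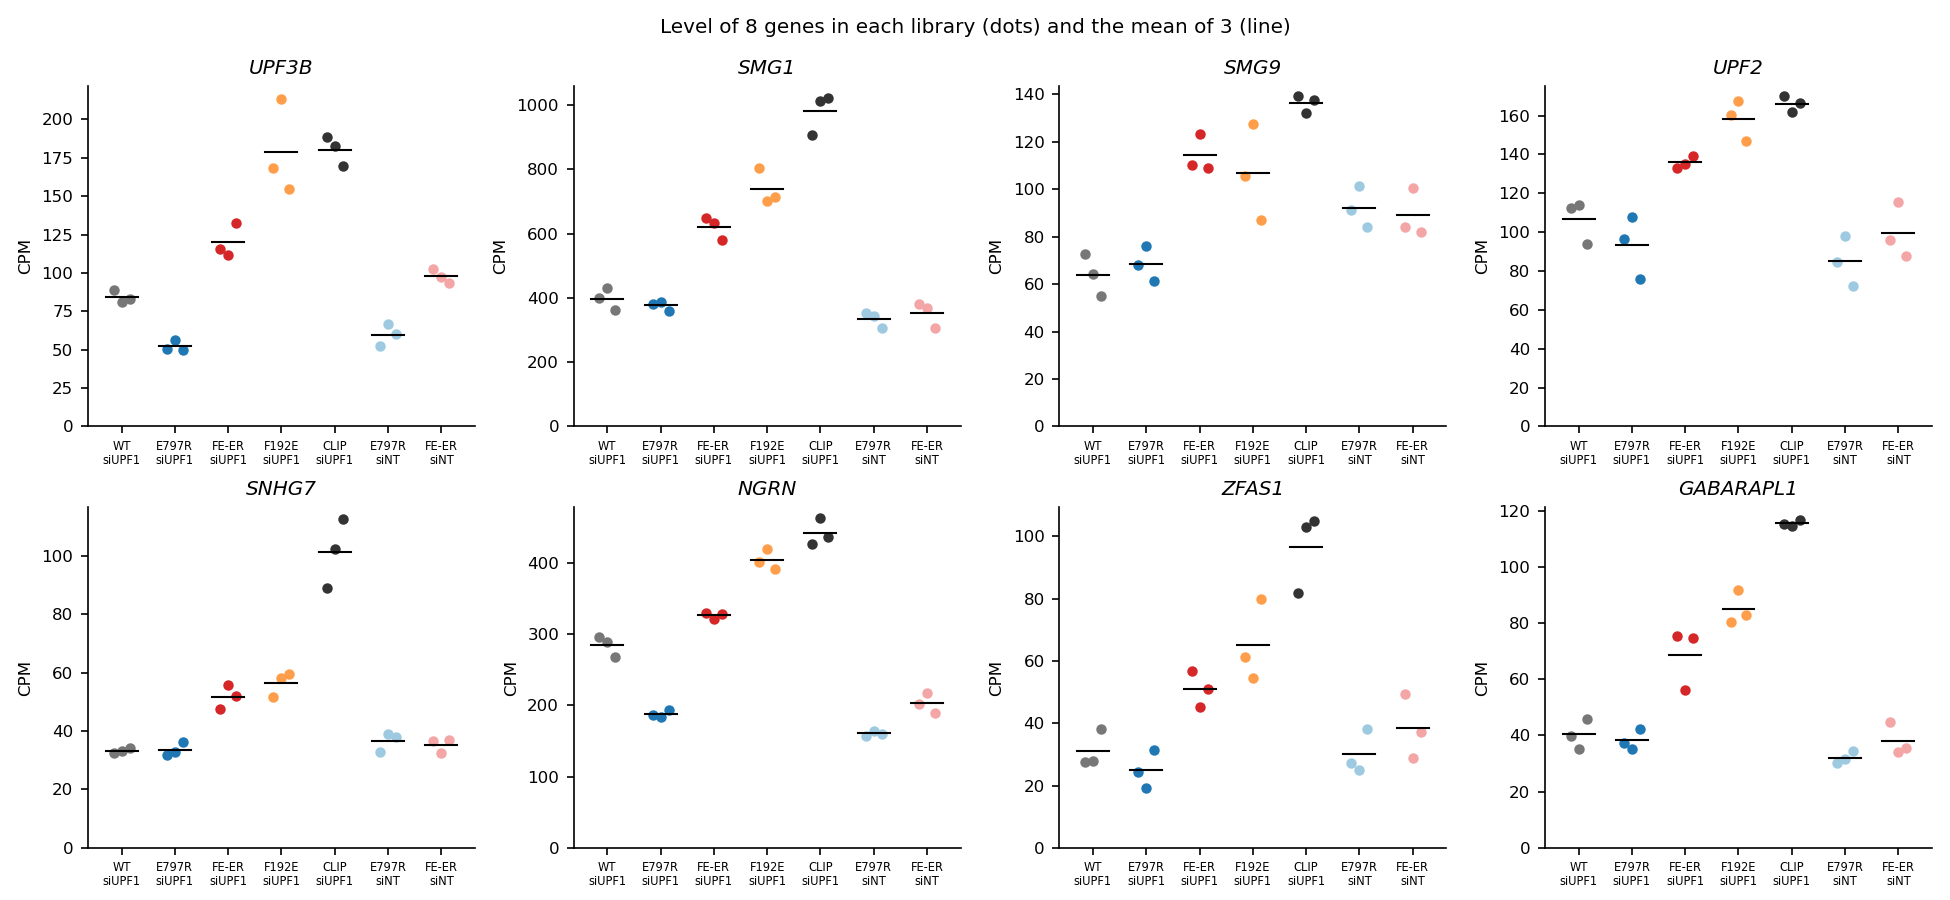
CPM of 8 genes (vertical axis, starting at 0) in 5 lines with siUPF1 and in E797R and FE-ER with siNT (horizontal axis). Dots are libraries and lines are means of 3. With siUPF1 the FE-ER dots lie above all E797R dots in each panel and below the CLIP dots; UPF3B and NGRN also stand apart between the 2 lines with siNT.

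Of 45 established NMD targets tested, 6 were higher, where 0.755% of all genes were, and none was lower. The median was 0.18, with 31 above 0. This list was chosen with earlier results of these data known. The 6 are UPF3B and SMG1, counted above as NMD factors, ZFAS1, also a host gene of small nucleolar RNAs, GABARAPL1, ZFAND2A and TNFRSF10B. In CLIP 28 of the 45 rose with siUPF1 and 6 fell, TNFRSF10B among them (18.1% and 15.6% of all genes). GABARAPL1, a member of the ATG8 family of autophagy proteins, was at 75.4, 56.2 and 74.7 CPM in FE-ER and at 37.4, 35.2 and 42.1 in E797R. FE-ER replicate 2 was the lowest of its group and still above all E797R libraries (log2 difference 0.84, SE 0.14; adjusted p = 0.00036). In CLIP with siUPF1 it reached 116 ± 1.17 CPM and in WT 40.4 ± 5.35, close to E797R. ZFAND2A, a zinc-finger protein induced by proteotoxic stress, measured 15.8, 15.9 and 13.9 CPM against 9.86, 9.39 and 10.4, with no overlap (0.61, SE 0.15; adjusted p = 0.035). The calls of ZFAND2A and TNFRSF10B were lost without any 1 of the 6 libraries, at adjusted p from 0.053 to 0.15 for the first and from 0.070 to 0.29 for the second.

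Host genes of small nucleolar RNAs carry those RNAs in their introns, and the spliced remainder of many is degraded by NMD. Of 30 tested, 5 were higher in FE-ER and none lower (0.755% and 0.12% of all genes), with a median of 0.15. ZFAS1 measured 56.9, 45.1 and 51.2 CPM in FE-ER and 24.5, 19.3 and 31.3 in E797R. The libraries did not overlap (log2 difference 1.02, SE 0.21; adjusted p = 0.0068), but the adjusted p was 0.051, 0.054 and 0.078 without FE-ER replicate 1, E797R replicate 1 and E797R replicate 2. SNHG7 was steadier, at 47.4, 55.6 and 52.0 CPM against 31.8, 32.7 and 36.2 (0.62, SE 0.10; adjusted p = 0.00049), and was called in all 6 fits without 1 library. EPB41L4A-AS1 was too, at 55.7, 46.1 and 54.9 against 32.2, 28.8 and 34.4 (0.71, SE 0.13; adjusted p = 0.0023). C6orf48, listed elsewhere as SNHG32, differed by 1.02 (SE 0.23; adjusted p = 0.017) and SNHG6 by 0.75 (SE 0.19; adjusted p = 0.049). The call of C6orf48 was lost without FE-ER replicate 1 or 3 or E797R replicate 1 or 2, where the adjusted p reached 0.13. These hosts overlap the small RNAs they carry, so that counts of host and small RNA could be divided by the authors' counting.

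**Figure D3:**
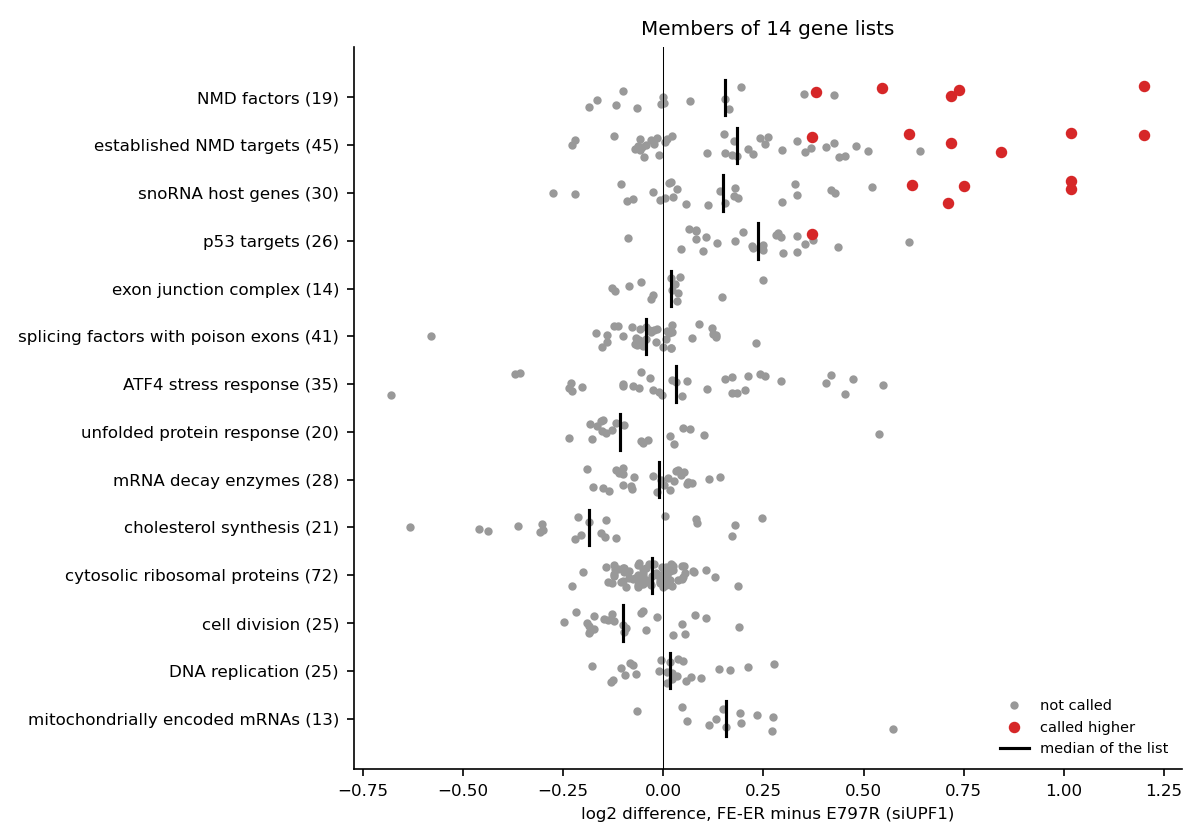
Log2 difference between FE-ER and E797R with siUPF1 (horizontal axis) for each tested member of 14 gene lists (vertical axis, number tested in brackets). Red dots are called higher, gray dots are not called and the black bar is the list's median; called members appear in NMD factors, NMD targets, host genes of small nucleolar RNAs and p53 targets.

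The 12 largest increases that the rule for naming genes took held 9 genes outside the NMD factors and the host genes' list. Most abundant among them was NFKBIB, an inhibitor of NF-kappa-B, at 142, 156 and 186 CPM in FE-ER and 84.0, 76.8 and 69.6 in E797R (log2 difference 1.07, SE 0.16; adjusted p = 8.7e-05). Its lowest FE-ER library was well above its highest E797R library. It overlaps SIRT2 on the other strand, and whether the counting used strand is not given in the sources used here. ZNF446, a zinc-finger gene, was at 22.0, 17.2 and 16.4 CPM against 8.16, 9.89 and 8.94 (1.05, SE 0.16; adjusted p = 0.00015). AC138969.1, at 118, 110 and 128 CPM against 51.4, 41.2 and 57.1, differed by 1.24 (SE 0.23; adjusted p = 0.0018) and overlaps the pseudogene PKD1P1, so its level is uncertain. NFKBIB, ZNF446 and AC138969.1 were called under every alternative run.

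STMN3, a microtubule-destabilising protein of neurons, and SYP, the synaptic vesicle protein synaptophysin, were also among the 12. STMN3 measured 15.2, 20.5 and 17.1 CPM in FE-ER and 7.53, 6.20 and 8.72 in E797R, without overlap (log2 difference 1.21, SE 0.30; adjusted p = 0.038). Leaving out any 1 library gave an adjusted p between 0.052 and 0.19. SYP was at 15.1, 13.7 and 22.0 CPM against 8.48, 8.55 and 10.2 (0.90, SE 0.23; adjusted p = 0.041), and was called in 1 of those 6 fits, the one without FE-ER replicate 2. Both had higher levels with siNT: STMN3 stood at 64.6 ± 10.4 CPM in FE-ER and 47.2 ± 7.85 in E797R with siNT, and SYP at 34.1 ± 4.68 and 25.2 ± 7.0.

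WNK4, a kinase that controls ion transport, was at 12.3, 12.8 and 11.5 CPM in FE-ER and 5.09, 5.53 and 7.04 in E797R. It differed by 1.04 (SE 0.25; adjusted p = 0.034) and kept the call only without E797R replicate 3, among the 6 fits without 1 library. ZNF600 (1.42, 1.21 and 2.30 CPM against 0.742, 0.335 and 0.224) and the pseudogene RPL23AP7 (4.39, 6.74 and 4.37 against 2.44, 1.51 and 2.46) had few counts, between 2 and 7 per E797R library for ZNF600. Their log2 differences were 1.86 (SE 0.41; adjusted p = 0.012) and 1.23 (SE 0.27; adjusted p = 0.0097). ZNF600 was not called without FE-ER replicate 3 (adjusted p = 0.21), E797R replicate 2 (0.075) or E797R replicate 3 (0.16), and RPL23AP7 not without FE-ER replicate 2 (0.14) or E797R replicate 2 (0.090).

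Chosen after their values were seen, 4 further genes are given for their small p. NGRN, which encodes a protein of mitochondrial ribosome assembly (chromosome 15, 90265659 to 90278141, plus strand), was at 330, 321 and 329 CPM in FE-ER and 186, 184 and 194 in E797R (log2 difference 0.80, SE 0.09; adjusted p = 4.7e-07). With siNT it was at 161 ± 3.47 CPM in E797R against 203 ± 13.6 in FE-ER and 224 ± 25.6 in WT, though that difference between the lines was not called (0.34, adjusted p = 0.99). DMPK, the kinase of the myotonic dystrophy locus, differed by 0.87 (SE 0.13; adjusted p = 8.4e-05). RAB24, a small GTPase, differed by 0.84 (SE 0.12; adjusted p = 7.4e-05). CERS1, a ceramide synthase that shares its locus with GDF1, differed by 0.78 (SE 0.11; adjusted p = 8.4e-05). All 4 were called in each of the 6 fits without 1 library.

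The higher genes were set beside other comparisons that use none of the 6 libraries. Of the 126, 109 (86.5%) rose with siUPF1 in CLIP, where 18.1% of all genes rose, and 7 fell there: GOT2, SDHC, STMN3, SYP, MIR34AHG, TNFRSF10B and MAPK8IP2. In CLIP against WT with siUPF1, 114 of the 126 (90.5%) were higher, which is 7.93% of the 1437 genes higher there (8.61% of all genes). None of the 126 was lower in CLIP than in WT, as 5.45% of all genes were. These shares describe which genes were called and carry no test. The mean level in CLIP was above that in FE-ER for 117 of the 126, a count that was not made over all genes.

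The 111 protein-coding genes among the 126 were compared with other genes in their annotation. A transcript annotated as an NMD substrate was present for 52.3% of them, for 45.7% of coding genes at 10 CPM or more and for 42.7% of all coding genes tested. The median 3′ untranslated region was 1302 bases long, against 1164 and 1020 bases. The median number of annotated transcripts was 8, against 8 and 7. These are annotations of genes, and the deposited counts do not separate transcripts.

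Sets chosen from CLIP and WT libraries gave the same comparison over more genes. WT-restored risers are 723 genes that siUPF1 raised in CLIP by 1.5-fold or more and whose level with siUPF1 was higher in CLIP than in WT. In FE-ER against E797R 73 of them were higher (10.1%, against 0.755% of all genes) and none lower. Their median log2 difference was 0.26 and 90.9% were above 0, against -0.005 and 48.8% for all genes. With siNT the median of the same genes was 0.01. Unrestored risers are 409 genes that rose at least 1.5-fold with siUPF1 in both CLIP and WT (in WT 8.43% of all genes rose and 6.98% fell). They had a median of 0.04, with 3 higher (0.733%, near the 0.755% of all genes) and none lower.

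The mean level of the WT-restored risers placed each line between WT and CLIP. With siUPF1 it was 4.88, 4.86 and 4.87 log2 CPM in the FE-ER libraries and 4.57, 4.57 and 4.62 in the E797R libraries. WT averaged 4.58 ± 0.04 (SD, n = 3), F192E 4.99 ± 0.01 and CLIP 5.43 ± 0.05. On the way from WT to CLIP, E797R stood at 0.735%, FE-ER at 33.9% and F192E at 47.9%. E797R and WT therefore overlapped, while FE-ER lay apart from both and below F192E, whose lowest library was above the highest of FE-ER. A set of 1571 genes was chosen from CLIP libraries alone, with no WT library in the choice. It placed E797R at 1.10%, FE-ER at 33.7% and F192E at 46.3%. This set holds all 723 WT-restored risers, so the 2 placements are not independent. With siNT the risers stood at 4.46 ± 0.04 in FE-ER and at 4.43 ± 0.05 in E797R, within each other's range.

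The mirror set had a median below 0. WT-restored fallers are 292 genes at least 1.5-fold lower with siUPF1 in CLIP and lower in CLIP than in WT, a set that holds UPF1 itself. Their median difference in FE-ER against E797R was -0.21, with 1 gene called lower (0.342%, against 0.12% of all genes) and none higher. Of the set's members with the largest fold between CLIP and WT that the rule took, none was called: MAP2K6, a stress kinase, was at 24.7 ± 1.60 CPM in FE-ER and 30.1 ± 4.30 in E797R, and FADS2, a fatty acid desaturase, at 7.04 ± 0.616 and 10.5 ± 0.467.

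**Figure D4:**
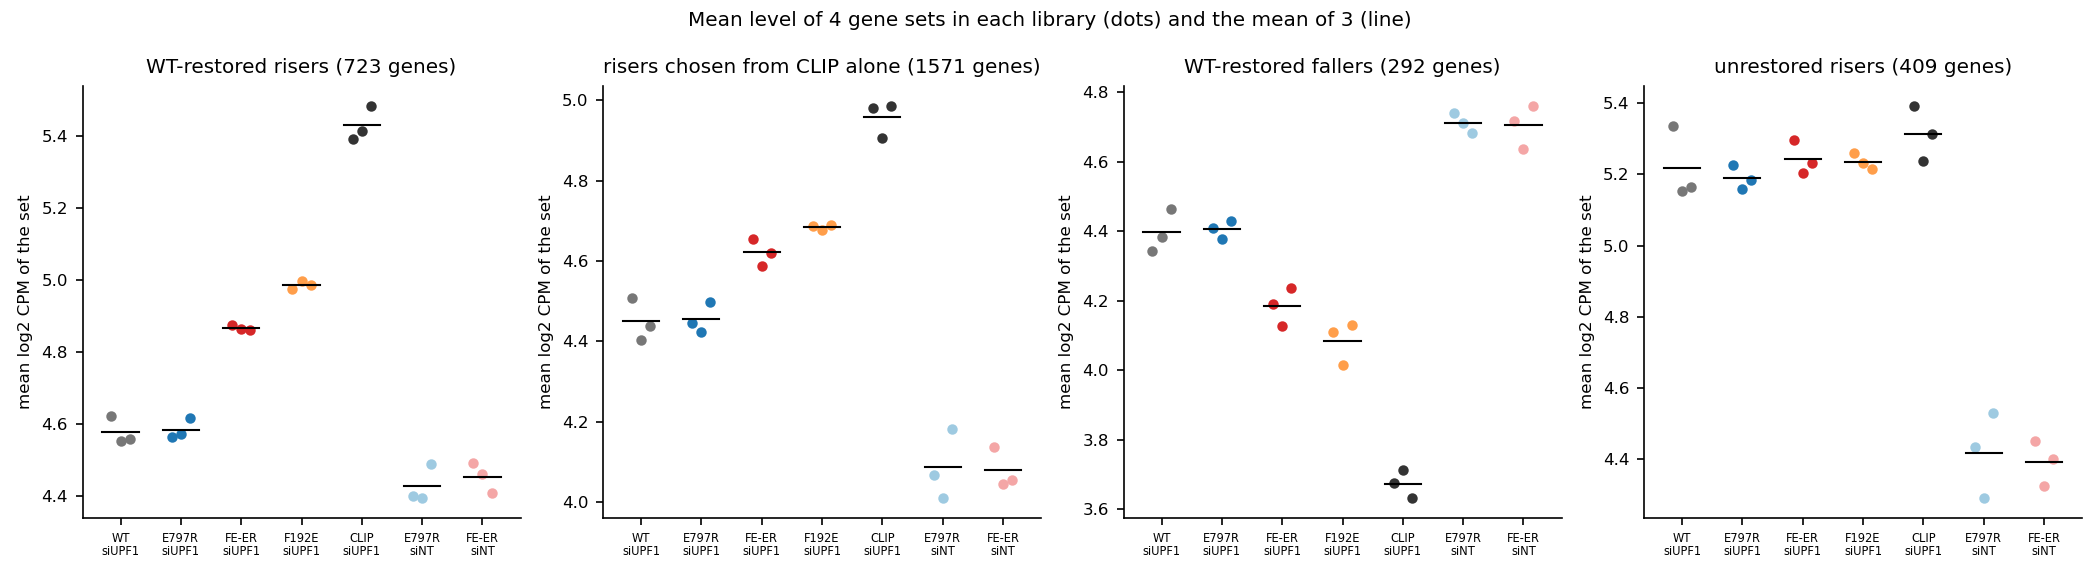
Mean log2 CPM of 4 gene sets (vertical axis of each panel, not starting at 0) in each library of 7 groups (horizontal axis); dots are libraries and lines are means of 3. In the risers of the 2 left panels FE-ER with siUPF1 lies between E797R, which overlaps WT, and F192E; in the unrestored risers FE-ER and E797R overlap.

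Among the 12 WT-restored risers with the largest fold between CLIP and WT, 3 were called in FE-ER against E797R, all higher. Of all 723 risers 10.1% were called higher, and of all genes 0.755%. AC125232.2, a noncoding transcript, was at 32.8, 25.5 and 26.9 CPM against 16.8, 13.9 and 17.7 (log2 difference 0.81, SE 0.14; adjusted p = 0.00079); the others were C6orf48 and ZFAND2A. The 9 not called ran from -0.004 for the pseudogene CCT6P3 to 1.05 for the pseudogene WASH7P. They include STC2, a secreted glycoprotein induced by stress, at 145, 87.3 and 134 CPM in FE-ER and 84.5, 74.6 and 150 in E797R, where the libraries of both lines overlapped. TSC22D3, a glucocorticoid-induced regulator, ranged from 210 to 456 CPM in FE-ER and from 122 to 284 in E797R, with overlap.

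F192E against WT with siUPF1 measures the same named change without E797R, in other libraries. There 252 genes were higher and 52 lower (1.51% and 0.311% of all genes; 304 or 1.82% in all), and 1167 were called, 710 higher and 457 lower, with the replicate number as a block, since same-numbered libraries of these lines deviated together. Of the 126 genes higher in FE-ER, 85 (67.5%) were among the 252, of which they make up 33.7%. The difference had the same sign in 123 of the 126, as in 64.7% of all genes. LINC00632, ALDH1A2 and CDKN2A were the exceptions.

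Single genes are given on both backgrounds for comparison. UPF3B differed by 1.08 between F192E and WT (SE 0.11; adjusted p = 2.2e-08) and by 1.20 on E797R. SMG1 differed by 0.90 (SE 0.09; adjusted p = 9.4e-09) and by 0.72. SMG9 differed by 0.74 on both. CERS1, at 1.28 and 0.78, and ZFAND2A, at 1.16 and 0.61, had larger values without E797R, but neither difference of differences was called. Over all genes the test of the difference between these steps called 1 gene, LINC00632 (0.00599%), with 447 at an unadjusted p under 0.05.

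Over the WT-restored risers the median was 0.36 for F192E against WT and 0.26 for FE-ER against E797R, and the step was smaller on E797R for 68.7% of the 723 genes. The same WT libraries chose these genes, with low values in WT favoured, so that the first median is affected by the choice. In the 1571 genes chosen from CLIP alone, which hold these 723, the medians were 0.19 and 0.14. The step was smaller on E797R for 56.8% of the 1571, against 49.5% of all genes. Across the 723 genes the steps correlated with Pearson r = 0.61, across the 1571 with r = 0.39 and across all genes with r = 0.23; genes are not independent replicates, and all points share the same 12 libraries.

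**Figure D5:**
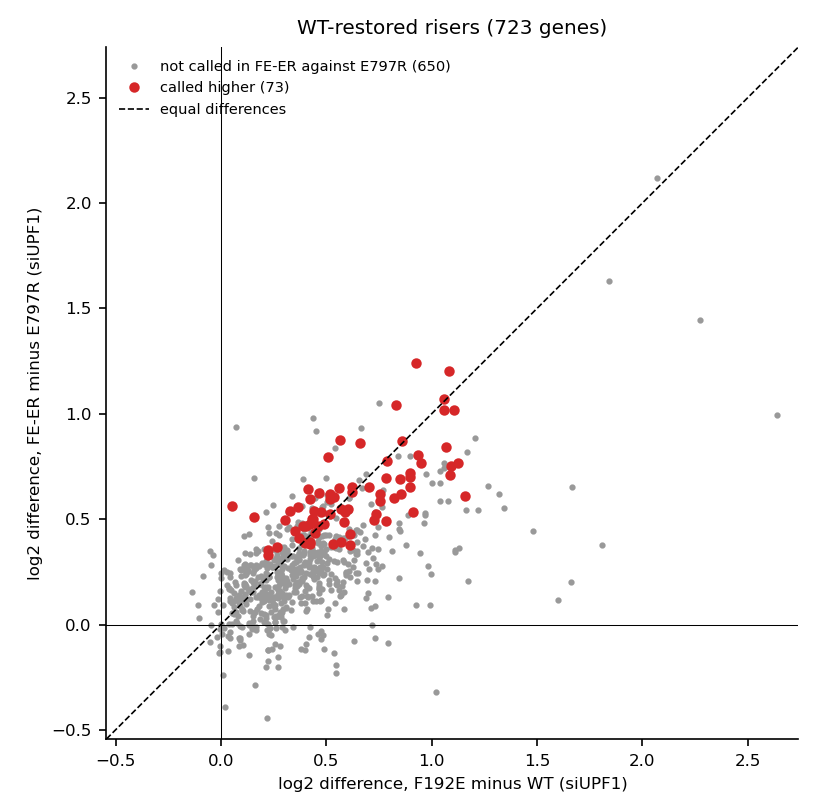
Log2 difference between FE-ER and E797R (vertical axis) against that between F192E and WT (horizontal axis), both with siUPF1, for the 723 WT-restored risers, which were chosen with WT libraries in use. Red dots are the 73 called higher in FE-ER and the dashed line marks equal differences; 68.7% of the genes lie below it.

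LINC00632, a noncoding RNA on chromosome X (140709562 to 140793215, plus strand) that overlaps CDR1 on the other strand, behaved differently on the 2 backgrounds. It measured 11.2, 11.05 and 14.2 CPM in FE-ER and 4.98, 4.36 and 6.48 in E797R (log2 difference 1.19, SE 0.24; adjusted p = 0.0052). It measured 4.49, 4.04 and 4.09 CPM in F192E and 7.99, 8.61 and 7.63 in WT, so that it was lower with F192E there (-0.93, adjusted p = 0.036). The difference between the steps was 2.13 (SE 0.35; adjusted p = 0.0055). With siNT it was also higher in FE-ER, at 10.9 ± 1.04 CPM against 3.68 ± 0.608 in E797R (1.55, adjusted p = 0.0024). The call with siUPF1 was lost without FE-ER replicate 3 (adjusted p = 0.053) or E797R replicate 1 (0.053).

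The lines were also compared with siNT, where the endogenous UPF1 is present. Only UPF3B and LINC00632 were called, both higher in FE-ER (2 genes, 0.012%), with 363 at an unadjusted p under 0.05. For the 126 genes the median difference was 0.13 with siNT, and 103 had the same sign, as did 55.6% of all genes. With siUPF1 the mean level was above that with siNT for 108 of the 126 in FE-ER and for 39 in E797R. That is a description, since the same siUPF1 libraries chose these genes, and it was not counted over all genes.

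The test of the difference between the knockdown effects of the lines called no gene with edgeR's quasi-likelihood test (0%), with 584 at an unadjusted p under 0.05, and DESeq2 called 1. Same-numbered libraries of each line deviated together across the siRNAs. With the replicate number as a block, which all lines share in the model, 17 genes were called. Between FE-ER and E797R the numbers did not pair the libraries (r = 0.01, 0.28 and 0.20 with siUPF1), so these calls are uncertain. For all 17 the change from siNT to siUPF1 was more positive in FE-ER than in E797R. A rise in FE-ER and a fall in E797R give the same sign, and the 2 were not separated for these 17 genes. They include SMG1 (0.65, SE 0.09; adjusted p = 6.7e-05), SMG9 (0.79, SE 0.11; adjusted p = 6.9e-05), SNHG7 (0.66, SE 0.12; adjusted p = 0.0069), ZNF446 (1.03, SE 0.20; adjusted p = 0.010) and NGRN (0.46, SE 0.10; adjusted p = 0.022). UPF3B, which differed with both siRNAs, was not among them.

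The 20 lower entries are 19 genes, because CD99 is listed under 2 identifiers with the same values. Their median was -0.61 and all 20 had E797R libraries above every FE-ER library, as had 6.32% of all genes. The sign was the same with siNT for 19 of the 20 entries (55.6% of all genes) and in F192E against WT for 18 (64.7%). These counts take CD99 under both identifiers. LINC02226, a noncoding RNA, was at 0.387, 0.539 and 0.547 CPM in FE-ER, 3 to 5 counts per library, and at 4.03, 3.02 and 3.02 in E797R (-2.74, SE 0.37; adjusted p = 2.0e-05). It was low in FE-ER with siNT too, at 0.996 ± 0.273 CPM against 2.71 ± 0.884, while F192E with siUPF1 stood at 3.15 ± 0.589.

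TENM1, a teneurin that connects neurons, measured 0.904, 1.21 and 1.20 CPM in FE-ER and 5.94, 3.18 and 7.15 in E797R (-2.30, SE 0.55; adjusted p = 0.026). Its call held only without E797R replicate 2 among the fits without 1 library, with an adjusted p up to 0.15. CD99, a cell surface glycoprotein, was at 25.3, 16.7 and 25.4 CPM against 42.8, 33.5 and 43.3 (-0.83, SE 0.21; adjusted p = 0.041), and at 23.6 ± 7.15 against 41.7 ± 6.38 with siNT. Its call held only without E797R replicate 2, and the adjusted p reached 0.30. In F192E and WT, CD99 stood at 41.6 ± 3.08 and 33.2 ± 5.18 CPM, the other direction.

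SLC16A7, a monocarboxylate transporter, had 1 to 4 counts per FE-ER library and 8 to 18 per E797R library (-2.26, SE 0.45; adjusted p = 0.0039; 0.052 without FE-ER replicate 2). CEBPE, a myeloid transcription factor, had 0 counts in every FE-ER library with siUPF1 and 9 to 17 in E797R, at least 4.26-fold lower with a floor of 3 counts per library. It was at 0 in FE-ER with siNT as well, at 0.0522 ± 0.0904 CPM in WT with siUPF1 and at 4.13 ± 1.11 in CLIP. Its adjusted p, 0.011, was 0.051, 0.052 and 0.064 without FE-ER replicate 1, 2 and 3.

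HPSE (heparanase), ZCCHC12, SP110 (a nuclear body protein), PALM2, ADGRL3 (latrophilin 3), DMD (dystrophin), LPCAT2 (a lysophospholipid acyltransferase) and AMMECR1 complete the 12 largest decreases at 1 CPM or more (11 genes, with CD99 under both identifiers), from -1.17 for HPSE to -0.44 for AMMECR1. ZCCHC12 measured 9.81, 9.30 and 9.73 CPM in FE-ER and 16.6, 16.3 and 16.4 in E797R (-0.77, SE 0.16; adjusted p = 0.0068). Its 6 libraries formed 2 tight groups. ZCCHC12 and ADGRL3 (-0.58, SE 0.11; adjusted p = 0.0029) kept their calls without any 1 library, while HPSE, SP110, PALM2, DMD, LPCAT2 and AMMECR1 lost theirs in 2 to 6 of those 6 fits. DMD was the only lower gene that was also lower in F192E than in WT (-0.57, adjusted p = 0.010).

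Other pathway lists gave few or no calls. Over all genes tested 0.874% were called and 0.755% were higher, so lists of this size would hold few or none at that share. Of 26 p53 targets 1 was higher, TNFRSF10B, a death receptor, at 91.3, 89.3 and 89.5 CPM against 73.7, 62.4 and 72.6 (0.37, SE 0.09; adjusted p = 0.043). The median of the list was 0.24 with 25 of 26 above 0, and it was 0.20 with siNT; PHLDA3, an AKT inhibitor, was at 33.4, 25.3 and 29.95 CPM against 22.5, 17.3 and 18.0 and was not called (0.61, SE 0.16; adjusted p = 0.058). None was called among 41 splicing factors with poison exons (median -0.04), 35 genes of the ATF4 stress response (0.03), 20 of the unfolded protein response (-0.11), 28 mRNA decay enzymes (-0.01), 72 cytosolic ribosomal proteins (-0.03), 25 cell division genes (-0.10), 25 of DNA replication (0.02), 19 selenoproteins (-0.01), 23 histones (-0.03) or 16 interferon-response genes (-0.06).

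Of 21 cholesterol synthesis genes none was called, with a median of -0.18, against 0.01 with siNT and -0.20 in F192E against WT. HMGCS1, the synthase that opens the pathway, was at 128 ± 16.3 CPM in FE-ER and 173 ± 17.7 in E797R (-0.44, SE 0.14; adjusted p = 0.15). Its libraries did not overlap. SLC7A5, an amino acid transporter of the ATF4 list, was at 163, 127 and 152 CPM against 102, 107 and 121, also without overlap (0.42, SE 0.13; adjusted p = 0.15). None of 13 mitochondrially encoded mRNAs or 8 abundant structural RNAs was called, and the summed level of the former ran from 23149 to 43205 CPM in FE-ER and from 26819 to 34134 in E797R.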

How the data were processed

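RNA-seq was made from rRNA-depleted RNA of 8 cell lines with 2 siRNAs, 3 libraries per group, 48 in all. The deposited values are expected counts per gene, as the authors obtained them with RSEM; the submitters' processing notes also name cutadapt, STAR, DESeq2 and the build hg38, without an order. The annotation release and the strand setting are not given in the sources used here. Of the values 9.16% were not whole, and all were rounded.

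Groups were taken from the sample labels. All 48 libraries were fitted in 1 edgeR 4.0.16 quasi-likelihood model (R 4.3.3, limma 3.58.1) with 16 groups, TMM scaling and filterByExpr at a minimum count of 10, which kept 16697 of 58870 genes. Adjusted p-values are Benjamini-Hochberg over all genes tested. The p-values rest on the spread between libraries of the same group, estimated over all 48 libraries, and do not cover the spread between lines of the same form. CPM used TMM-scaled library sizes, and log2 CPM a prior count of 2. Depth limits genes with few counts; replicates differed by more than counting noise. On data simulated for this comparison over 16605 genes, 40% of 100 genes changed 1.5-fold and 67.7% of 99 changed 2-fold were recovered, with 4 false calls among 111.

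Genes named are UPF1, the 12 largest called differences in each direction at a mean of 1 CPM or more, up to 4 members per list by p, the 12 risers and 6 fallers with the largest fold between CLIP and WT at 5 CPM or more, and called genes of the difference tests; any others were chosen after their values were seen, and 1 gene that the rule takes is not reported here. The members and lists were chosen with earlier results of these data known. Names and positions come from GENCODE 29, matched by Ensembl identifier without version for 16667 genes. Same-numbered libraries were taken as paired where every correlation of deviations was over 0.1: F192E with WT (0.12 to 0.35), and the siRNAs within FE-ER (0.22 to 0.36) and E797R (0.29 to 0.47). E797R with WT (0.18 to 0.38) and with F192E (0.18 to 0.40) also passed, but no test here compares them directly. Alternatives were other scalings, no filter, DESeq2 1.42.0, only the compared groups, a replicate block, and leaving out each library.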

Additional observations from a re-analysis of the deposited data

Results flagged for a closer look

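LINC00632 stood out because the F192E step differed between the backgrounds: it was higher in FE-ER than in E797R and lower in F192E than in WT, all with siUPF1. The difference between the steps was 2.13 on the log2 scale (SE 0.35; edgeR quasi-likelihood test, adjusted p = 0.0055), with FE-ER above E797R and F192E below WT in all 3 libraries of each. It was also higher in FE-ER with siNT. With 1 line per UPF1 form, line and form cannot be told apart here.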

How the results depend on the processing

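The genes followed one by one under the alternatives run include 39 of the 146 called, picked largely for size of difference, small p or list. For these 39 no direction turned, 13 kept their call under every alternative and 17 in every fit without 1 library. The other called genes can be less stable. For FE-ER against E797R with siUPF1, 146 genes became 605 (438 higher, 167 lower) with a replicate block, although these numbers did not pair the libraries (r = 0.01, 0.28 and 0.20; 3 of 6 libraries correlated best with their own number). DESeq2 gave 226 and fitting only the 6 libraries 26, and leaving out 1 library gave 65 to 88. With siNT the 2 calls became 12 with the block, 34 without a filter and 0 with only its own groups, and 0 to 4 without 1 library. For the difference of knockdown effects, 0 became 17 with the block, 1 with upper-quartile scaling, 1 with DESeq2 and 30 without a filter, and 0 to 1 without 1 library. F192E against WT gave 1167 with the block, 85 with only its groups and 151 to 246 without 1 library, against 304. The difference of steps gave 6 with the block, 47 without a filter and 1 to 2 without 1 library. The cause was not tested.

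The UPF1 difference ran from 0.15 to 0.22 without 1 library. The median of the WT-restored risers was 0.34 at a 2-fold minimum, 0.14 when chosen from CLIP alone (an alternative chosen after seeing the data) and 0.24 to 0.27 without 1 library. Fallers ran from -0.24 to -0.20 and unrestored risers from 0.01 to 0.07. Genes raised in F192E gave 0.28 with the block, 0.53 with only their groups, 0.49 at a 1.5-fold minimum and 0.36 to 0.43 without 1 library. Among uncalled genes the sign turned for CCT6P3 (0.16, 0.01 and 0.11), INHBE (-0.01, -0.14, -0.29 and -0.24, within a range of -0.29 to 1.39) and METTL7A (0.066, within a range of -0.40 to 0.066), each when 1 library was left out.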
